A study of Mus musculus with 9 samples.

Results

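Calreticulin and other chaperones of the endoplasmic reticulum (ER) were examined in LSK cells of mouse bone marrow. These cells lack lineage markers, carry Sca1 and cKit, and include the blood stem and progenitor cells. The set held 10 genes of the 37882 in the deposited table, matched by symbol: the lectin chaperones Calr and Canx, the ER Hsp70 and Hsp90 genes Hspa5 and Hsp90b1, the disulfide isomerases Pdia3, Pdia4 and Pdia6, the stress-induced factors Manf and Sdf2l1, and the transcription factor Xbp1. Calr was chosen by its RPKM values in K36M against rtTA, where an earlier analysis of the same table had called it higher. The other members were named for their function while those results were known. For that comparison the members' values are therefore descriptions, given with no p-value.

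K36M mice carried rtTA, a doxycycline-dependent activator, at Rosa26 and an H3.3 transgene with lysine 36 changed to methionine (H3K36M) at Col1a1. K9M mice carried the same activator and an H3K9M transgene at Col1a1, and rtTA control mice carried the activator alone. All 9 mice, 3 per group, were 6 to 8 weeks old, on a B6/129 background, and drank water with 2 mg/ml doxycycline and 10 mg/ml sucrose. A group with an H3.3 transgene of unmutated sequence is not among the labels. In the comparisons with rtTA, an effect of the mutation and an effect of carrying a transgene therefore cannot be told apart. In K36M against K9M both groups carried a transgene, whose level is not given separately. How long doxycycline was given is not stated in the sources used here.

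Proteins that enter the ER are folded there before they are secreted or sent to membranes. Calreticulin (Calr) and calnexin (Canx) bind proteins by their sugar chains and work with Pdia3, which pairs cysteines. BiP (Hspa5) and Grp94 (Hsp90b1) bind unfolded stretches. When unfolded protein accumulates, the unfolded protein response is set off through the sensors ATF6, IRE1 and PERK. ATF6 and XBP1 then act at the ER stress response element (ERSE), a promoter sequence of many chaperone genes, while PERK signals through ATF4.

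The promoters are shown because several members hold the same element there. The rule for choosing them did not use it, but members were named for their function and the element is known from chaperone genes. Its share among them is therefore a description and no independent result. Windows from 250 bases before to 50 after the gene start were available for 9 members, from RefSeq on GRCm38.p6. The ERSE was searched on both strands as CCAAT, any 9 bases, then CCACG. It was found in the windows of 5 members, Calr, Canx, Hspa5, Hsp90b1 and Pdia6, and in 0.119% of all 32851 windows (39 windows). Hsp90b1 held it at 2 places that do not overlap, from 212 to 194 and from 107 to 89 bases before its start. In Hspa5 it lay nearest the start, from 65 to 47 bases before it. The shorter ERSE-II (ATTGG, any 1 base, CCACG) and the element TGACGTGG were in 0 of the 9 windows, and in 0.037% and 0.676% of all windows. CCAAT by itself, ERSE matches included, stood in 8 of the 9 windows and in 37.4% of all windows. CCACG by itself stood in 7 of the 9 and in 32.8% of all windows. A match describes letters and does not show that a factor binds there.

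The 5 windows with an ERSE follow, each on its gene's strand, with the fixed letters of the element in capitals. They lie at chr8:84846882-84847181 (minus strand), chr11:50325624-50325923 (minus), chr2:34771840-34772139 (plus), chr10:86705395-86705694 (minus) and chr12:17266339-17266638 (plus), in the order printed. In Calr, and at the second place in Hsp90b1, the element stands on the opposite strand and reads CGTGG, then ATTGG.
Calr: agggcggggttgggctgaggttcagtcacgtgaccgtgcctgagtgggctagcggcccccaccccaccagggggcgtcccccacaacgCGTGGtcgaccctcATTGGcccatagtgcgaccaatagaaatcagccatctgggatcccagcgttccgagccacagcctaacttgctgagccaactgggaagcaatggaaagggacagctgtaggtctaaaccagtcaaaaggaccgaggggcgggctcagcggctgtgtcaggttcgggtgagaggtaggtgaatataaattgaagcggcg
Canx: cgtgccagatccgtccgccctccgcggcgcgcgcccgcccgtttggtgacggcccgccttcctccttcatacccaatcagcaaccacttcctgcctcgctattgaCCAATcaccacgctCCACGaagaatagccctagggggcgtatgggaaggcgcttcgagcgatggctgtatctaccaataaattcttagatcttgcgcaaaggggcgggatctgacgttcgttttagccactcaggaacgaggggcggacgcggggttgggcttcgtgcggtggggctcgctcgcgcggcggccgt
Hspa5: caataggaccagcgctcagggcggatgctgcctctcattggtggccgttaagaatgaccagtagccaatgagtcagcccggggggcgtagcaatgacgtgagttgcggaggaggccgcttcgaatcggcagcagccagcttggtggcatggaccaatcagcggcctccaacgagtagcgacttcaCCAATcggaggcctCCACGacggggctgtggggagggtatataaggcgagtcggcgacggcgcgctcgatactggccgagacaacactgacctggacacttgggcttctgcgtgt
Hsp90b1: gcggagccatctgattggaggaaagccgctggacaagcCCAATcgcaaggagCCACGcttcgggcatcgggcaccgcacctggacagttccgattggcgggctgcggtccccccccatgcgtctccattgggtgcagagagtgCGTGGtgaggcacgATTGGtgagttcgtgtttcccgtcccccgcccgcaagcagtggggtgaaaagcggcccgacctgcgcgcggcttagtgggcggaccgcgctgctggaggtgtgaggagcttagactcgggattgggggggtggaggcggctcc
Pdia6: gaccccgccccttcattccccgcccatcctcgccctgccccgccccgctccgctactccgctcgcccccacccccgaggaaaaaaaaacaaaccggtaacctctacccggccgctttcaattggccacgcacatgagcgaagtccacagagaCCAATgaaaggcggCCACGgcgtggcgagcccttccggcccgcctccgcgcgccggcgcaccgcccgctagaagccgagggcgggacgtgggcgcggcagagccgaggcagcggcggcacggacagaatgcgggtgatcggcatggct

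**Figure D1:**
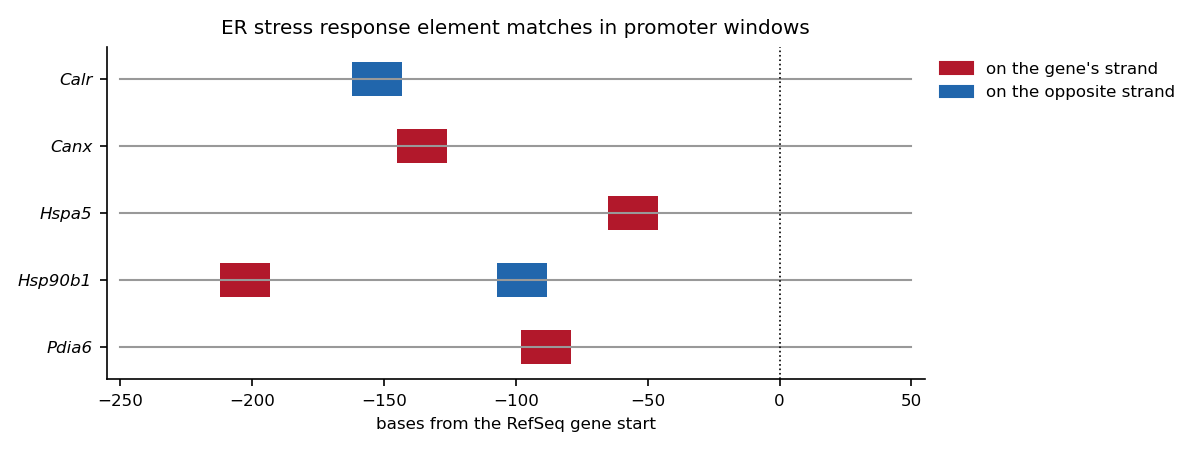
Positions of the ERSE in the promoter windows of 5 ER chaperone genes, in bases from the RefSeq gene start (dotted line), with grey lines for the windows. The match nearest a start is that of Hspa5, from 65 to 47 bases before it, and Hsp90b1 has 2 matches.

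RPKM gives the reads of a gene per kilobase of transcript and per library depth. Judged by its lowest steps, libraries held about 36880000 to 50310000 reads in K36M, 15870000 to 48880000 reads in K9M and 16580000 to 33790000 reads in rtTA. The member value resting on the fewest reads was that of Sdf2l1, at about 500 reads in its lowest library, so counting error was small for all 10. H3f3a, whose reads may include the transgene's, stood at 409 to 490 RPKM in K36M, 284 to 319 RPKM in K9M and 192 to 256 RPKM in rtTA. The sort markers Kit and Ly6a were present in all 9 libraries. Kit stood at 53.3 to 74.2 RPKM in K36M, below all libraries of K9M (81.1 to 92.0 RPKM) and rtTA (88.1 to 102.5 RPKM), and Ly6a at 119 to 192, 125 to 172.5 and 119.8 to 292 RPKM in these groups. Of the T and NK cell markers, the 3 CD3 genes stayed at or under 0.594 RPKM and Trbc2 reached 10.9 to 37.1 RPKM. Library rtTA 3 stood apart by mature granulocyte markers, whose summed level was 6415 RPKM there against 726 and 1394 RPKM in the other controls. K36M 1 and K36M 3 stood apart by early granulocyte markers, as given beside the results below.

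The 10 members had their highest mean in K36M without exception. Their summed level was 1614, 1221 and 1635 RPKM in K36M 1, 2 and 3. It was 1008, 1135 and 1098 RPKM in K9M 1, 2 and 3, and 948, 1051 and 962 RPKM in rtTA 1, 2 and 3. Values below are on the RPKM scale unless a log2 fold change is named, which is on the log2(RPKM + 0.5) scale with its standard error (SE) from limma over all 9 libraries. A gene is called where its two-sided limma p, adjusted by Benjamini-Hochberg over all 12926 tested genes, is under 0.05, and all 10 members were tested. Gene coordinates are from GENCODE M21 on mm10.

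Calr (ENSMUSG00000003814, chromosome 8, 84841850 to 84846934, minus strand) encodes the soluble lectin chaperone that also stores ER calcium, and it had the highest level of the members in each group. Its RPKM was 556.5, 398 and 581 in K36M 1, 2 and 3, 298, 344 and 334 in K9M, and 288, 278 and 291 in rtTA. All K36M libraries lay above all others, and the K9M libraries lay just above the controls. By mean level Calr ranked 137 among the tested genes in K36M, 218 in K9M and 223 in rtTA. Its log2 fold change was 0.82 (SE 0.15) in K36M against rtTA. In K36M against K9M it was 0.64 (SE 0.15, limma adjusted p = 0.0653) and in K9M against rtTA 0.18 (SE 0.15, limma adjusted p = 0.836), neither called.

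Canx (ENSMUSG00000020368, chromosome 11, 50293961 to 50325673, minus strand), the membrane-bound relative of calreticulin, differed less. It stood at 111, 91.8 and 127 RPKM in K36M 1, 2 and 3, at 87.4, 101.1 and 87.8 RPKM in K9M, and at 76.8, 89.8 and 83.5 RPKM in rtTA. K36M lay above rtTA without overlap but overlapped K9M. The log2 fold change was 0.39 (SE 0.13) in K36M against rtTA and 0.24 (SE 0.13, limma adjusted p = 0.374) in K36M against K9M. The 2 lectin chaperone genes were thus ordered K36M, K9M, rtTA by mean, and for Canx the neighbours in that order overlapped.

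Hspa5 (ENSMUSG00000026864, chromosome 2, 34771970 to 34777547, plus strand) encodes BiP, the ER Hsp70 that also holds the stress sensors inactive. Its RPKM was 219, 174.5 and 208 in K36M 1, 2 and 3, 143.5, 161 and 151 in K9M, and 132, 186 and 155 in rtTA. The value of rtTA 2 exceeded that of K36M 2, so K36M and rtTA overlapped, and K36M lay above K9M. Hspa5 had the smallest fold change of the members in K36M against rtTA, 0.35 (SE 0.14), and 0.39 (SE 0.14, limma adjusted p = 0.178) in K36M against K9M. Hsp90b1, the ER Hsp90 (ENSMUSG00000020048, chromosome 10, 86690209 to 86705509, minus strand), averaged 152 ± 13.5 RPKM in K36M, 123 ± 14.6 RPKM in K9M and 115 ± 21.3 RPKM in rtTA (SD, n = 3 each). Its highest control, rtTA 2 at 139.7 RPKM, lay above its lowest K36M library at 138 RPKM. Exons of Hsp90b1 overlap 1810014B01Rik, and since strand use in counting is not stated, reads there cannot be assigned.

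Among the disulfide isomerases, Pdia3 (ENSMUSG00000027248, chromosome 2, 121413775 to 121438687, plus strand) is the partner of calreticulin and calnexin. It stood at 237, 168 and 213 RPKM in K36M 1, 2 and 3, at 153, 167 and 158 RPKM in K9M, and at 142, 138 and 132 RPKM in rtTA. The 3 groups did not overlap, though K36M 2 and K9M 2 were within 1 RPKM of each other. Its log2 fold change was 0.57 (SE 0.13) in K36M against rtTA and 0.36 (SE 0.13, limma adjusted p = 0.181) in K36M against K9M. Pdia4 (ENSMUSG00000025823, chromosome 6, 47796141 to 47813430, minus strand) averaged 68.3 ± 12.9 RPKM in K36M, 51.6 ± 2.83 RPKM in K9M and 50.7 ± 2.80 RPKM in rtTA (SD, n = 3 each). Its K9M and rtTA libraries overlapped, and K36M 2 at 54.2 RPKM was barely above the highest control at 53.9 RPKM.

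Pdia6 (ENSMUSG00000020571, chromosome 12, 17266545 to 17284770, plus strand), which also acts on the stress sensors, differed from Pdia3 and Pdia4 in which groups overlapped. It stood at 110.1, 78.9 and 101.4 RPKM in K36M 1, 2 and 3, at 84.0, 90.2 and 84.6 RPKM in K9M, and at 72.9, 71.4 and 60.0 RPKM in rtTA. Both mutant groups lay above rtTA, and K36M and K9M overlapped, with K36M 2 below every K9M library. It had the largest fold change of the members in K9M against rtTA, 0.34 (SE 0.14, limma adjusted p = 0.657), which was not called, and the smallest in K36M against K9M, 0.15 (SE 0.14, limma adjusted p = 0.606). Exons of Pdia3 and Pdia6 overlap Catsper2 and Atp6v1c2 on the opposite strand.

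Sdf2l1 (ENSMUSG00000022769, chromosome 16, 17130138 to 17132383, minus strand) encodes a partner of BiP complexes that is induced by ER stress, and its fold changes were the largest of the set in both comparisons with K36M. It stood at 81.8, 51.0 and 80.0 RPKM in K36M 1, 2 and 3, at 36.1, 40.6 and 37.9 RPKM in K9M, and at 28.8, 42.8 and 36.4 RPKM in rtTA. K36M lay above both other groups, which overlapped. The log2 fold change was 0.96 (SE 0.20) in K36M against rtTA and 0.85 (SE 0.20, limma adjusted p = 0.0592) in K36M against K9M. The second value was not called, and passed without K36M 2 (limma adjusted p = 0.0151) or rtTA 1 (0.0479). Manf (ENSMUSG00000032575, chromosome 9, 106838312 to 106891979, minus strand) is a secreted factor induced by ER stress. It stood at 39.1, 32.8 and 39.7 RPKM in K36M 1, 2 and 3, at 28.9, 30.2 and 30.6 RPKM in K9M, and at 27.4, 28.1 and 25.9 RPKM in rtTA. Its 3 groups did not overlap, with differences of 0.44 (SE 0.10) in K36M against rtTA and 0.31 (SE 0.10, limma adjusted p = 0.138) in K36M against K9M on the log2 scale. Exons annotated to Manf overlap Dcaf1, Rbm15b and 4930524O07Rik.

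Xbp1 (ENSMUSG00000020484, chromosome 11, 5520659 to 5525893, plus strand), the target of IRE1, rose in K36M against K9M and had the lowest level of the members in K36M, K9M and rtTA alike. It stood at 34.6, 34.2 and 40.3 RPKM in K36M 1, 2 and 3, at 22.6, 20.1 and 26.5 RPKM in K9M, and at 23.1, 28.6 and 25.5 RPKM in rtTA. All K36M libraries were higher than all others, and K9M and rtTA overlapped. The log2 fold change in K36M against K9M was 0.65 (SE 0.13, limma adjusted p = 0.0384), and in K36M against rtTA it was 0.49 (SE 0.13). The call was kept without K36M 2, rtTA 1 or rtTA 2. It was lost without K36M 1 (limma adjusted p = 0.111), K36M 3 (0.150), K9M 1 (0.134), K9M 2 (0.112), K9M 3 (0.0749) or rtTA 3 (0.0613). It also ended with no filter (limma adjusted p = 0.0734), with only the 2 groups fitted (0.0543) and with quantile normalization (0.0547). A gene total does not separate Xbp1 messages spliced by IRE1 from unspliced ones.

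**Figure D2:**
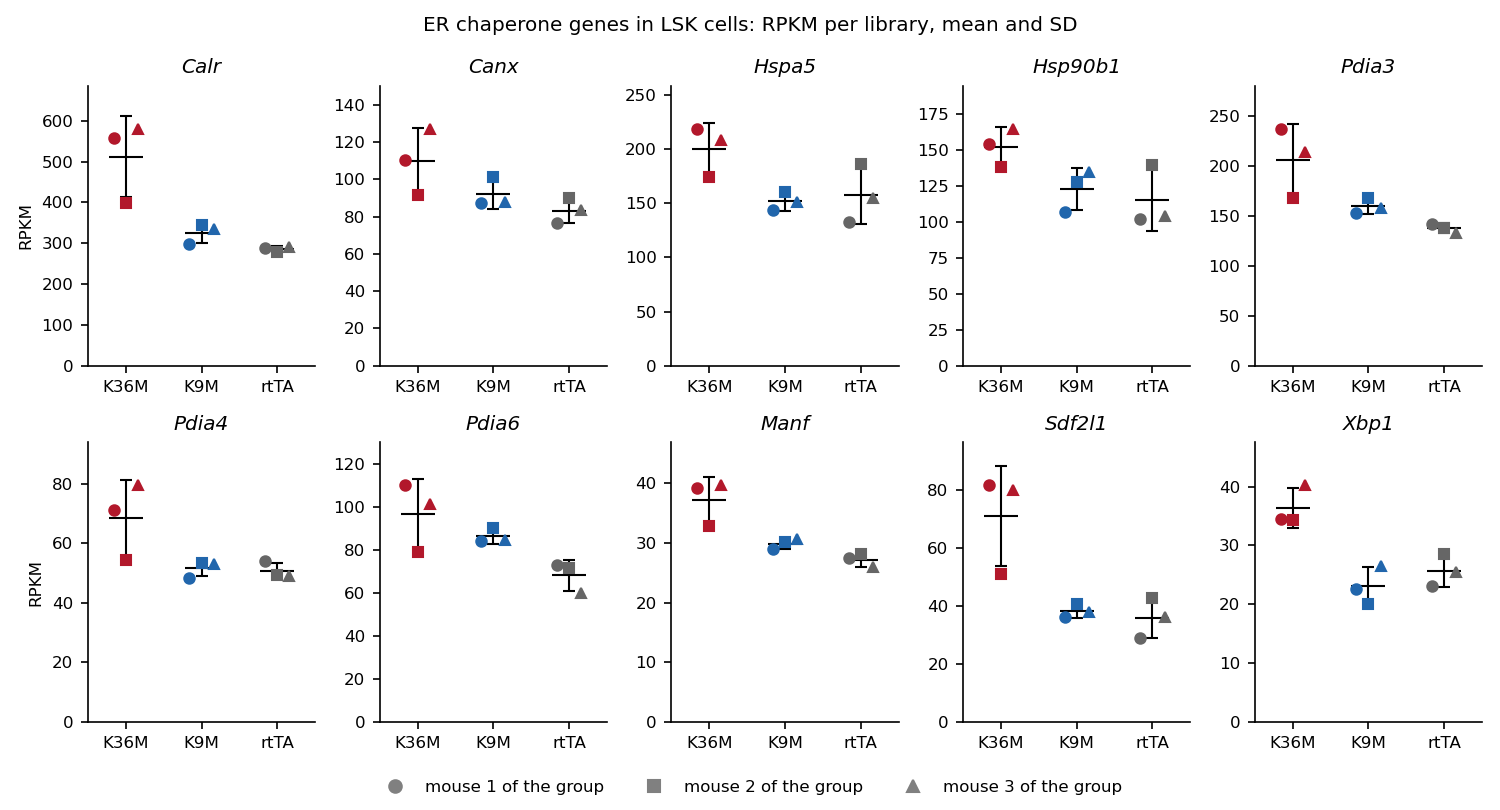
RPKM of the 10 ER chaperone genes in each library, by group (K36M, K9M, rtTA, 3 mice each). Symbols mark the mouse number and black bars give mean and SD. In each panel the square of K36M 2 is the lowest K36M value, and for Calr the K36M libraries span 398 to 581 RPKM.

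In K36M against rtTA, the contrast that guided the choice of Calr, the members' log2 fold changes ran from 0.35 to 0.96 with a median of 0.47, and the median of all tested genes was 0.02. Calr was the 1 member called higher, where 0.572% of tested genes were called higher, 0.928% lower and 1.5% in all. Calr was chosen for this call, so nothing is read from the count, which is given for completeness. It was 6 of 10 without K36M 2 and 0 of 10 without any other single library, K9M libraries included. Libraries did not overlap, with K36M higher, for 8 of 10 members, and for 11.6% of tested genes (10.6% with K36M lower). The median without each library in turn ran from 0.40 to 0.55, and was 0.41 without rtTA 3.

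K36M against K9M shares the K36M libraries with that contrast, so it is no independent support for it. The members' fold changes were positive for 10 of 10, from 0.15 to 0.85, with a median of 0.37 (all tested genes, 0.01; 51.1% of them positive). Xbp1 was the 1 member called higher, where 1.02% of tested genes were (2.52% in either direction), and 7 of 10 had an unadjusted limma p under 0.05, as did 18.8% of tested genes. The count of called members became 5 without K36M 2, when Calr, Pdia3, Pdia4 and Sdf2l1 joined Xbp1, and 2 without rtTA 1. It was 0 without K36M 1, K36M 3, K9M 1, K9M 2, K9M 3 or rtTA 3. K36M libraries lay above all K9M libraries for 8 members and for 14.5% of tested genes, and below them for 0 members and 13.4%.

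K9M against rtTA shares the control libraries with the first contrast. By limma 0 of 10 members were called, where 0.0928% of tested genes passed as higher, 0.0232% as lower and 0.116% in all. An unadjusted p under 0.05 was found for 1 member, Pdia6, and for 7.11% of tested genes. Fold changes ran from -0.16 for Xbp1 (SE 0.13, limma adjusted p = 0.832) to 0.34 for Pdia6, with 8 of 10 positive and a median of 0.12 (all tested genes, 0.01), or 0.11 without rtTA 3. Calr, Pdia3, Pdia6 and Manf lay above the controls in every K9M library, 4 of 10 members against 7.09% of tested genes, and 0 members lay below them against 5.43%. Hspa5 had a value of -0.04 (SE 0.14, limma adjusted p = 0.966), which became 0.08 without rtTA 2.

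**Figure D3:**
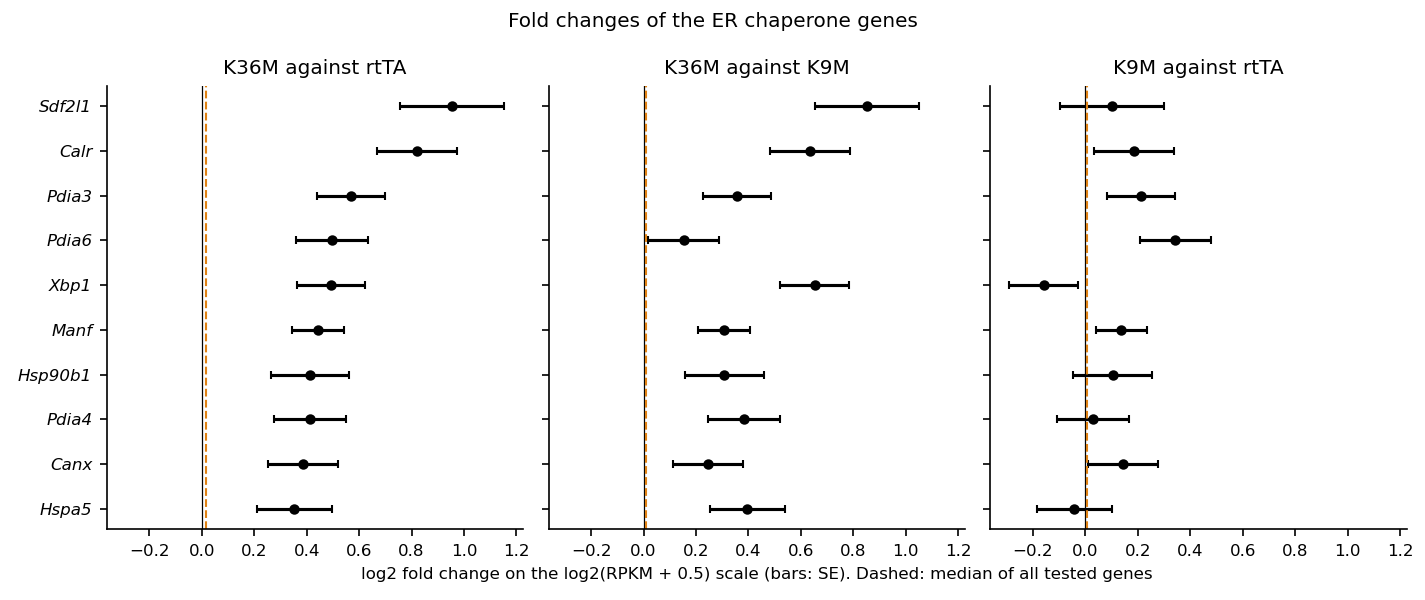
Log2 fold changes of the 10 ER chaperone genes, on the log2(RPKM + 0.5) scale with SE bars, in the 3 comparisons. The dashed line is the median of all tested genes. Values run from 0.35 to 0.96 in K36M against rtTA, from 0.15 to 0.85 in K36M against K9M and from -0.16 to 0.34 in K9M against rtTA.

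The members varied together between mice of the same group. K36M 2 had the lowest K36M value for 10 of 10 members, whereas it was the lowest of the 3 for 33.4% of tested genes. Across the 9 libraries, log2 values of member pairs had a Pearson r between 0.42 (Xbp1 with Pdia6) and 0.98 (Manf with Calr), with a median of 0.84 over 45 pairs. With group means subtracted the median was 0.64, from -0.03 (Xbp1 with Pdia3) to 0.95 (Pdia4 with Calr), and 44 of 45 pairs were positive. All pairs share the same 9 libraries, and members were not chosen blind to them, so these values describe the set only. The same correlations were not computed for pairs of other tested genes, so the values do not mark a trait particular to the set.

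Markers of early granulocytes and promyelocytes, cells that make large amounts of granule protein in the ER, also had their lowest K36M sum in K36M 2. Within K36M and within K9M, the marker sums and the member sums put the libraries in the same order. Within rtTA they did not, as rtTA 3 had the highest marker sum and rtTA 2 the highest member sum. In K9M against rtTA the markers had a median log2 fold change of -0.34 (2 of 8 positive) and the members 0.12 (8 of 10 positive). All 8 markers on that list were in the table and none was at 0 in any library. Their summed level was 3161, 1254 and 3731 RPKM in K36M 1, 2 and 3, 747, 1481 and 973 RPKM in K9M, and 920, 934 and 1437 RPKM in rtTA. Elane, the neutrophil elastase gene, stood at 634, 218 and 898 RPKM in K36M 1, 2 and 3, against 84.7, 165 and 236 RPKM in rtTA. All 8 had positive log2 fold changes in K36M against rtTA, with a median of 1.35, and in K36M against K9M, with a median of 1.68. By limma, Cebpe (3.22, limma adjusted p = 0.0148) and Prtn3 (2.02, 0.0433) were called in K36M against K9M, and 0 of 8 in K36M against rtTA (6 at an unadjusted p under 0.05). The Cebpe call was lost without K36M 1 (limma adjusted p = 0.0705), K36M 3 (0.0728), K9M 1 (0.0594) or K9M 3 (0.0608). The Prtn3 call was lost with the replicate block (limma adjusted p = 0.0519), no filter (0.102), only the 2 groups fitted (0.0680) and without each library but K36M 2 and rtTA 1 (0.0581 to 0.160). In K36M 2 the marker sum lay within the ranges of both other groups. The 8 members whose K36M and rtTA libraries did not overlap (11.6% of tested genes, K36M higher) stood above all controls there by definition. The share of tested genes for K36M 2 alone was not computed. The markers Cebpe (15.5 RPKM, against at most 10.5 RPKM), Prtn3 (171 against at most 138.5 RPKM) and Nkg7 (98.4 against at most 94.3 RPKM) also stood above all controls there. Mpo (466 against at most 642 RPKM), Elane (218 against at most 236 RPKM), Ctsg (245 against at most 265.5 RPKM), Ms4a3 (32.8 against at most 43.5 RPKM) and Gfi1 (7.18 against at most 9.76 RPKM) did not. A further list held 5 genes, the sort markers Kit and Ly6a and, besides them, Cd34, Flt3 and Procr. Its median log2 fold change was -0.32 in K36M against rtTA, with 0 of 5 positive, and -0.40 in K36M against K9M, with 1 of 5 positive. By limma 0 of these 5 genes were called in either comparison (3 at an unadjusted p under 0.05 in each). The part of these markers in the members' differences was not tested. In bulk libraries, a change in the number of cells of a type and a change in RNA per cell cannot be told apart.

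Other marker lists did not share a single order. Mature granulocyte markers summed to 418, 181 and 268 RPKM in K36M 1, 2 and 3, to 453 to 1092 RPKM in K9M and to 726 to 6415 RPKM in rtTA. In K36M against rtTA 0 of these 10 markers were positive (median log2 fold change -2.70, 9 at an unadjusted limma p under 0.05). Ltf, a granule protein gene on that list, stood at 6.05, 2.61 and 3.39 RPKM in K36M 1, 2 and 3, against 42.6, 27.8 and 272 RPKM in rtTA. It was called lower there (-4.01, limma adjusted p = 0.0370). That call was lost without rtTA 1 or any K36M or K9M library (limma adjusted p from 0.0572 to 0.141), with no filter (0.0925) and with only the 2 groups fitted (0.121). Plasma cells are rich in ER, and their markers summed to 251 to 285 RPKM in K36M, 234 to 303 RPKM in K9M and 309 to 630 RPKM in rtTA, with the receptor Tnfrsf17 at 0 in 4 of the 9 libraries and at most 0.151 RPKM. The antibody gene Igha stood at 2.74, 24.0 and 11.04 RPKM in K36M 1, 2 and 3, at 0.0198 to 0.183 RPKM in K9M, and at 9.57 to 59.3 RPKM in rtTA. It was called higher in K36M against K9M (4.08, limma adjusted p = 0.0320; 0.0885 to 0.128 without K36M 3 or any K9M library, 0.0831 with no filter and 0.0512 with a pseudocount of 1). It was called lower in K9M against rtTA (-5.41, limma adjusted p = 0.0436; 0.0886 to 0.193 without K36M 3, rtTA 2, rtTA 3 or any K9M library). That second call also ended with no filter (limma adjusted p = 0.144), quantile normalization (0.0613), median-ratio rescaling (0.0504) and a pseudocount of 1 (0.0792). Igkc, another antibody gene, stood at 47.5 to 72.1 RPKM in K36M, 0.951 to 34.97 RPKM in K9M and 75.7 to 245.5 RPKM in rtTA. B lineage markers summed to 33.4 to 42.5 RPKM in K36M, 21.4 to 28.5 RPKM in K9M and 45.6 to 61.8 RPKM in rtTA. Monocyte and macrophage markers summed to 343, 244 and 564 RPKM in K36M 1, 2 and 3, again lowest in K36M 2, and to 197 to 240 RPKM in K9M and 224 to 770 RPKM in rtTA. Erythroid markers summed to 419 to 701 RPKM in K36M, 478 to 632 RPKM in K9M and 409 to 459 RPKM in rtTA. Hbb-bt, on that list, was called higher in K36M against rtTA (3.64, limma adjusted p = 0.0267) and against K9M (3.10, 0.0336). Both calls were lost with no filter (limma adjusted p = 0.0703 and 0.0854), among other settings. Of the 9 tested erythroid markers, 6 and 4 were positive in these comparisons. Cpa3, a mast cell and basophil marker, was called lower in K36M against K9M (-0.92, limma adjusted p = 0.0219). That call was lost with no filter (limma adjusted p = 0.0511) and without K36M 1, K36M 3 or any K9M library (0.066 to 0.108). The part of these lists in the members' differences was not tested.

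**Figure D4:**
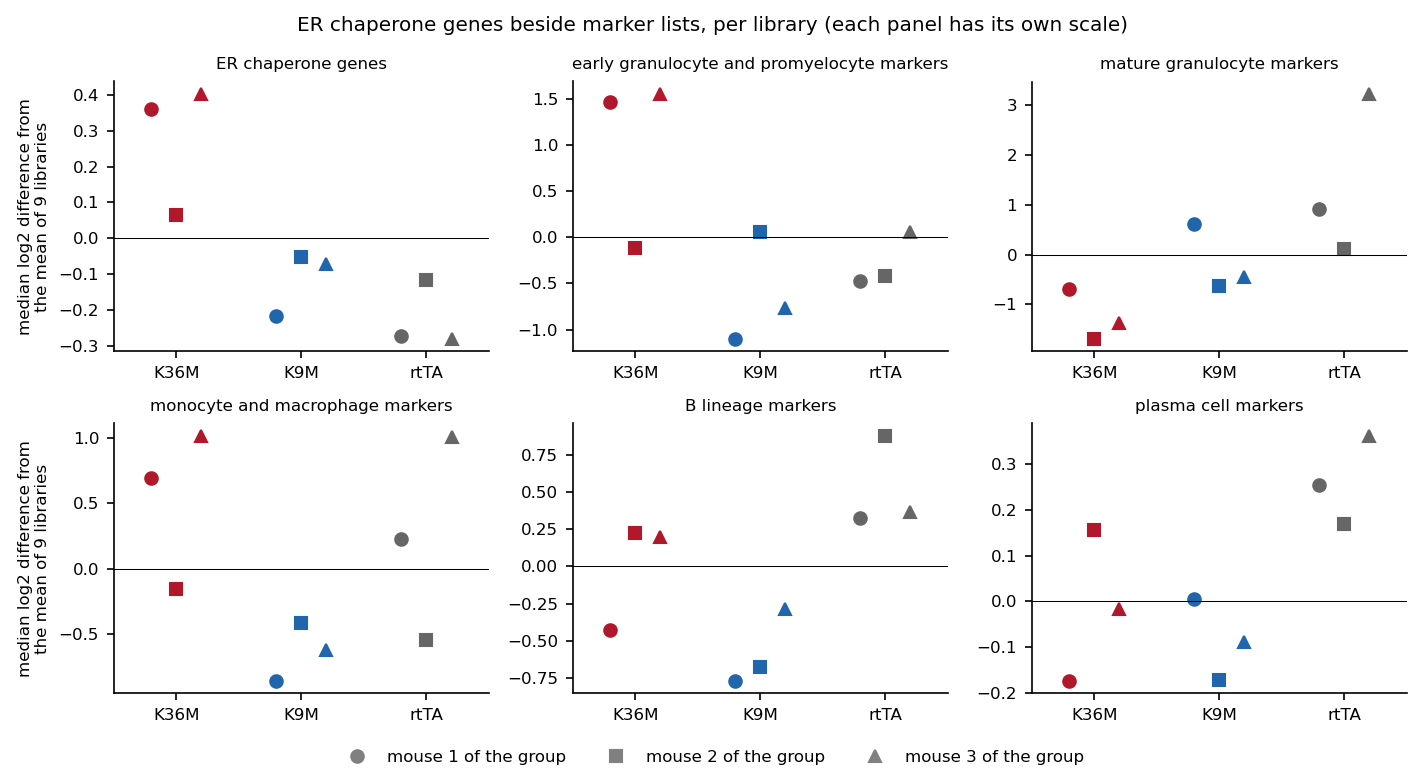
Median log2 level of the ER chaperone genes and of 5 marker lists in each library, as the difference from the 9-library mean, with a separate scale per panel. K36M 1 and 3 are highest for the ER chaperone genes (0.36 and 0.40) and for early granulocyte markers (1.47 and 1.56), and K36M 2 lies at 0.07 and -0.12.

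The genes that work beside the members in the ER were taken from lists built on textbook roles. Their counts stand beside those over all tested genes. In K36M against rtTA 52.3% of these were positive and 19.1% had an unadjusted p under 0.05. The same shares were 51.1% and 18.8% in K36M against K9M, and 51.3% and 7.11% in K9M against rtTA. BiP's cochaperones and other folding factors had 19 tested genes, with 0 called in K36M against rtTA by limma (6 at an unadjusted p under 0.05) and a median of 0.15. Dnajb11, a BiP cochaperone, averaged 30.5 ± 2.11 RPKM in K36M, 24.7 ± 0.65 RPKM in K9M and 23.0 ± 2.08 RPKM in rtTA (SD, n = 3 each). It did not pass in K36M against rtTA (0.40, limma adjusted p = 0.0850), nor did Creld2, an ER stress gene (0.48, 0.0865). In K36M against K9M, Fkbp11, an ER prolyl isomerase abundant in secretory cells, rose by 1.31 (SE 0.25, limma adjusted p = 0.0332) as the 1 call of this list. It stood at 13.9, 9.07 and 12.9 RPKM in K36M 1, 2 and 3, at 5.89, 5.07 and 2.86 RPKM in K9M, and at 7.14, 6.88 and 5.62 RPKM in rtTA. Its call was lost without K36M 1, K36M 3 or any K9M library (limma adjusted p from 0.0650 to 0.132), with no filter (0.0794) and with only the 2 groups fitted (0.0556). Dnajb9 (-0.41, limma adjusted p = 0.521) and Dnajc3 (-0.42, 0.509), both BiP cochaperones, had the smallest p of the list in K9M against rtTA and did not pass.

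Glycan trimming and attachment, the step that feeds the calnexin cycle, gave the median nearest to that of the members. In K36M against rtTA 18 of 18 tested genes had positive fold changes, with a median of 0.39, 12 had an unadjusted limma p under 0.05, and 1 was called. Rpn1, a subunit of the enzyme that attaches sugar chains, stood at 125, 89.1 and 113 RPKM in K36M 1, 2 and 3, at 78.3, 88.2 and 76.2 RPKM in K9M, and at 66.4, 70.5 and 67.7 RPKM in rtTA. It rose by 0.66 (SE 0.13, limma adjusted p = 0.0475), a call that ended with the replicate number as a block (limma adjusted p = 0.0555) and without any single library but K36M 2 (limma adjusted p from 0.0737 to 0.170). It also ended with no filter (limma adjusted p = 0.0827) and with only the 2 groups fitted (0.145). In K36M against K9M the median was 0.33 with 17 of 18 positive and 0 called by limma (11 at an unadjusted p under 0.05). Ddost, of the same enzyme (0.58, limma adjusted p = 0.0833), did not pass there, except without K36M 2 (0.0140). Tusc3, another subunit, went the other way without passing (-0.45, limma adjusted p = 0.1002). In K9M against rtTA the median of the list was 0.09 and 0 were called by limma (2 at an unadjusted p under 0.05).

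Other ER oxidoreductases had a median of 0.19 over 18 tested genes in K36M against rtTA, with 0 called by limma (5 at an unadjusted p under 0.05). P4hb, the founding disulfide isomerase, stood at 274, 174 and 277 RPKM in K36M 1, 2 and 3, at 144, 157 and 140 RPKM in K9M, and at 147, 136 and 148 RPKM in rtTA. Its K36M libraries lay above all others, but it did not pass (0.72 in K36M against rtTA, SE 0.17, limma adjusted p = 0.0821), except without K36M 2 (0.0122). Prdx4, an ER peroxidase, went against the members. It stood at 16.6, 14.6 and 10.6 RPKM in K36M 1, 2 and 3, at 38.6, 29.9 and 25.5 RPKM in K9M, and at 23.5, 18.6 and 21.4 RPKM in rtTA. It fell in K36M against K9M (log2 fold change -1.14, SE 0.19, limma adjusted p = 0.0245), where 1.5% of tested genes were called lower. The call was lost without K36M 1, K36M 3 or any K9M library (limma adjusted p from 0.0588 to 0.0899) and with no filter (0.0591).

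ER-associated degradation had 21 tested genes. Its median was 0.12 in K36M against rtTA, with 0 called by limma (4 at an unadjusted p under 0.05), and 0.21 in K36M against K9M. Edem1, which marks misfolded glycoproteins for removal and is a target of XBP1, rose in K36M against K9M by 0.79 (SE 0.17, limma adjusted p = 0.0478). It averaged 18.4 ± 4.45 RPKM in K36M, 10.2 ± 0.825 RPKM in K9M and 11.3 ± 0.88 RPKM in rtTA (SD, n = 3 each), and its call held, among single libraries left out, without K36M 2 only (limma adjusted p from 0.0522 to 0.165 for the others). It also ended with no filter (limma adjusted p = 0.0997) and with only the 2 groups fitted (0.0703). Translocon and signal peptidase genes had a median of 0.22 over 20 tested genes in K36M against rtTA, 19 of them positive, with 0 called by limma (7 at an unadjusted p under 0.05). Srp68, of the particle that brings ribosomes to the ER, averaged 65.9 ± 7.52 RPKM in K36M, 47.1 ± 1.51 RPKM in K9M and 47.6 ± 2.07 RPKM in rtTA (SD, n = 3 each). It rose in K36M against K9M by 0.48 (SE 0.10, limma adjusted p = 0.0485), a call kept without K36M 2 or rtTA 1 and lost without each other library (limma adjusted p from 0.0654 to 0.174). It also ended with no filter (limma adjusted p = 0.0734), with only the 2 groups fitted (0.0722) and with quantile normalization (0.0579).

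The sensors and regulators of the response had 15 tested genes and 0 calls by limma in all 3 comparisons (5 at an unadjusted p under 0.05 in K36M against rtTA, 4 in K36M against K9M and 0 in K9M against rtTA). Atf6b, a relative of ATF6, averaged 33.0 ± 4.78 RPKM in K36M, 21.5 ± 0.183 RPKM in K9M and 20.9 ± 3.17 RPKM in rtTA (SD, n = 3 each). It did not pass in K36M against rtTA (0.65, SE 0.14, limma adjusted p = 0.0608), except without K36M 2 (0.0305). Bak1, a cell death gene that also binds IRE1, did not pass either (0.63, limma adjusted p = 0.0539), but was called with the replicate block (limma adjusted p = 0.0444) or without K36M 2 (0.0221). The ATF4 and CHOP branch, fed by PERK, had 21 tested genes and 0 calls by limma in the 3 comparisons. Its median was -0.09 in K36M against rtTA (9 of 21 positive, 5 at an unadjusted p under 0.05) and -0.22 in K9M against rtTA (8 positive, 7 at that p). In K36M against K9M it was 0.13 (14 positive, 3 at that p). Ppp1r15a, the phosphatase subunit that restores translation and also an early response gene, stood at 11.5, 21.5 and 12.97 RPKM in K36M 1, 2 and 3, at 14.7, 17.7 and 20.6 RPKM in K9M, and at 25.0, 49.3 and 48.0 RPKM in rtTA. Both mutant groups lay below all controls, but it did not pass in K36M (-1.37, SE 0.30, limma adjusted p = 0.0618; 0.0293 with the replicate block, 0.0296 without K36M 2 and 0.0318 without rtTA 1) or K9M (-1.13, limma adjusted p = 0.391). The transcription factor gene Atf5 (0.54, limma adjusted p = 0.0539 in K36M against rtTA) did not pass, except with quantile normalization (0.0355).

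Genes of ER calcium handling, to which calreticulin's calcium store belongs, had 17 tested members and no shared direction, with medians of 0.16 in K36M against rtTA and -0.02 in K36M against K9M. Atp2a2, the main ER calcium pump, averaged 64.1 ± 9.13 RPKM in K36M, 44.6 ± 2.58 RPKM in K9M and 41.1 ± 5.62 RPKM in rtTA (SD, n = 3 each). It did not pass in K36M against rtTA (0.63, SE 0.14, limma adjusted p = 0.0610), except without K36M 2 (0.0322). Rcn3, a calcium-binding protein of the ER, moved the opposite way. It stood at 13.8, 16.9 and 13.9 RPKM in K36M 1, 2 and 3, at 28.0, 24.1 and 35.7 RPKM in K9M, and at 23.4, 21.4 and 21.6 RPKM in rtTA. The fall in K36M against K9M was called (-0.94, SE 0.15, limma adjusted p = 0.0201), and was lost without K36M 1, K36M 3, K9M 1 or K9M 3 (limma adjusted p from 0.0643 to 0.0913).

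Further genes with the smallest p of their list did not pass. In K36M against rtTA these were Ssr1, of the translocon (0.53, limma adjusted p = 0.0968), Edem1 (0.65, 0.0991), Srp68 (0.46, 0.0659), Rcn3 (-0.56, 0.0985), Prdx4 (-0.60, 0.148) and Ngly1, which removes sugar chains (-0.30, 0.171). Without K36M 2, Ssr1 (limma adjusted p = 0.0232), Edem1 (0.0181) and Srp68 (0.0274) passed. In K36M against K9M, Atf6b (0.60, limma adjusted p = 0.0611), Bak1 (0.46, 0.101) and Atf5 (0.41, 0.0912) were higher without passing, and Phgdh, of serine synthesis, had a value of -0.44 (0.166). Without K36M 2, Atf6b (limma adjusted p = 0.0326) and Bak1 (0.0332) passed, as did Atf6b without rtTA 1 (0.0391) and Phgdh with quantile normalization (0.0499).

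In K9M against rtTA 0 genes of these lists were called by limma (between 0 and 7 of a list at an unadjusted p under 0.05). The largest change among those named by smallest p was that of Vldlr, a lipoprotein receptor gene, at -1.15 (limma adjusted p = 0.1001). Tusc3 (0.49, limma adjusted p = 0.347), Prkcsh, of glucosidase II (0.22, 0.685), Prdx4 (0.54, 0.586) and Ero1lb, an ER oxidase (-0.14, 0.840), had the smallest p of their lists. So had Herpud1 (-0.23, limma adjusted p = 0.718) and Ufd1l (-0.15, 0.788), of ER-associated degradation, and Srp14 (0.28, 0.772) and Spcs1 (0.17, 0.813), of protein entry into the ER. The tRNA ligase gene Rtcb, whose product joins the Xbp1 exons (0.17, limma adjusted p = 0.788), the transcription factor gene Creb3l2 (-0.29, 0.796), Rcn3 (0.38, 0.642) and the calcium channel gene Tmco1 (0.19, 0.749) complete the set.

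**Figure D5:**
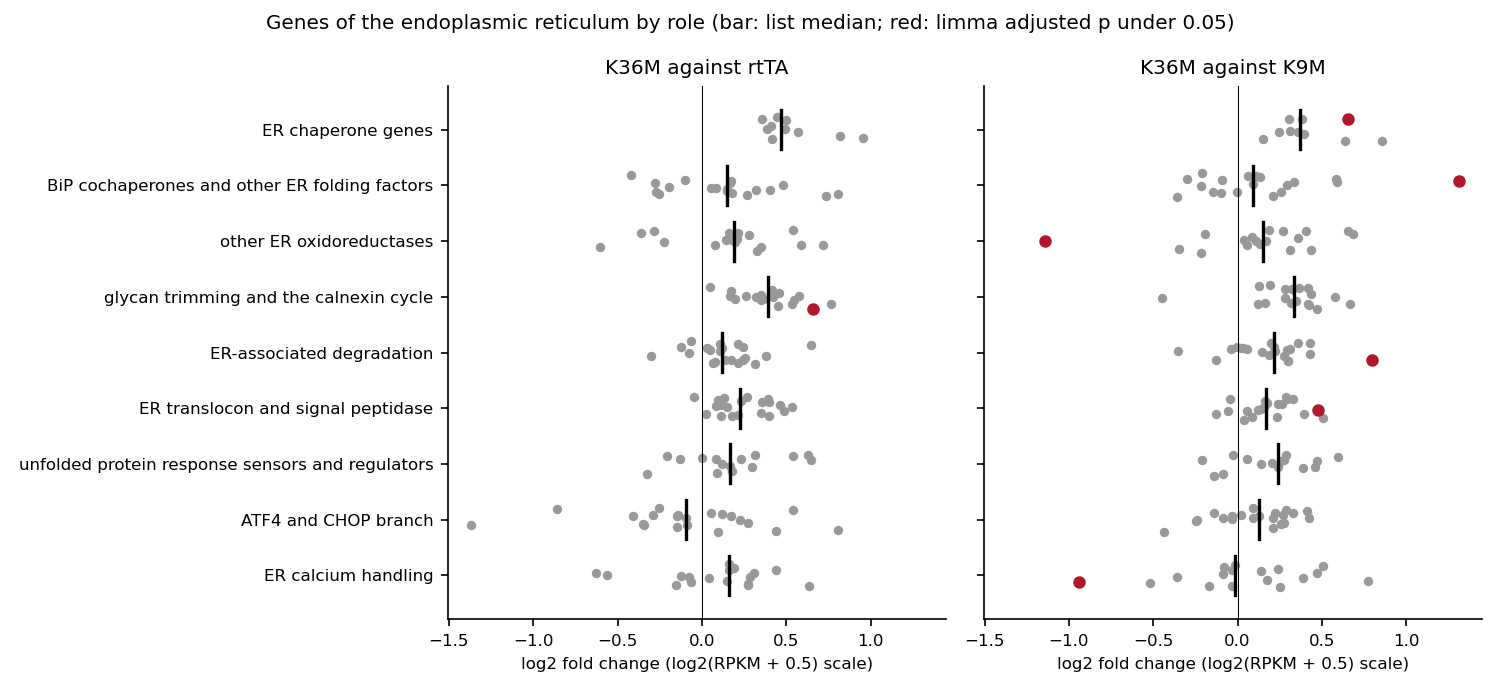
Log2 fold changes of the tested genes on 9 lists of ER genes, in K36M against rtTA and K36M against K9M, with a bar at each median and called genes in red. ER chaperone genes are not marked as called in K36M against rtTA, which guided their choice. Medians range from -0.09 for the ATF4 and CHOP branch to 0.47 for the ER chaperone genes in K36M against rtTA.

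Likeness to a member was measured as Pearson's r of log2(RPKM + 0.5) over the 9 libraries among tested genes outside the set. Nearest to Calr were Mlkl, the effector of necroptosis (r = 0.987, Spearman's rho 0.967), and Surf4, a cargo receptor of the ER (0.974, rho 0.950). They were followed by the zinc transporter gene Slc30a5 (0.971, rho 0.950), P4hb (0.971, rho 0.850) and Sec22c, a vesicle trafficking gene (0.969, rho 0.867). Mlkl stood at 26.1, 19.9 and 25.4 RPKM in K36M 1, 2 and 3, at 14.2, 16.4 and 15.1 RPKM in K9M, and at 14.0, 12.8 and 14.8 RPKM in rtTA. Surf4 averaged 79.7 ± 13.01 RPKM in K36M, 59.96 ± 0.957 RPKM in K9M and 54.9 ± 3.20 RPKM in rtTA (SD, n = 3 each). Nearest to Hspa5 were the RNA helicase gene Ddx27 (r = 0.981, rho 1.0), Ncln, of an ER membrane complex (0.971, rho 0.950), and Cep55, of cell division (0.967, rho 0.967). Zfyve19, of cell abscission (0.962, rho 0.967), and the SUMO ligase gene Pias4 (0.961, rho 0.933) came next. These genes are the extremes of a ranking over all tested genes and share libraries and group differences with the members, so the values rank likeness and nothing more.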

How the data were processed

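RNA of sorted LSK cells was sequenced from 3 mice per group, and the series design text gives each replicate as its own mouse. The authors deposited RPKM values for 37882 genes and 9 libraries. CASAVA 1.7, STAR and mm10 are named per the submitters' processing notes. Which counting rule, strand setting and annotation were used is not given in the sources used here. Reads in exons shared by genes are therefore uncertain.

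Values were analysed as log2(RPKM + 0.5), which understates changes of low genes, for the 12926 genes that reached 1 RPKM in 3 or more libraries. limma 3.58.1 in R 4.3.3 fitted 3 group means to all 9 libraries (6 residual and 3.14 prior degrees of freedom, mean-variance trend). The fit was tested on simulated data. Groups came from sample titles. Members, lists and tests were chosen with earlier results of these data known. Members were named in every comparison. On each other list the called genes with the largest change were named, up to 4, or the 2 with the smallest p where none was called. Marker genes are named as description.

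Depth was estimated from the lowest RPKM steps with GENCODE M21 exon lengths. With these, 50.4% to 52.3% of values worth up to 20 reads were whole within 0.02, so reads are approximate and gave no test. Copies of members were sought with blastn 2.17.0 (90% identity or more, over 200 bases or more). Promoters came from RefSeq.

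Replicate numbers shared by groups were checked by correlating deviations from group means across tested genes. For K36M and rtTA, same-number pairs stood at 0.414, 0.369 and 0.377, so the block value is given where it changes a call. This pairing comes from the data, not the labels. In the other comparisons the numbers did not pair the libraries by this rule. The block was still fitted to all 9 libraries, so block values in those comparisons assume a pairing that was not seen there. Alternatives were other pseudocounts, no filter, quantile normalization, median-ratio rescaling, fits to the 2 groups compared, a replicate block and leaving out each library.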

Additional observations from a re-analysis of the deposited data

How the results depend on the processing

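Directions of the 30 member fold changes were kept under each alternative, apart from small values in K9M against rtTA. With quantile normalization Hsp90b1 became -0.0093 and Pdia4 -0.029. With a library left out, Hspa5 ranged from -0.161 (without rtTA replicate 1) to 0.0832 (without rtTA replicate 2), and Sdf2l1 from -0.0466 to 0.2341 without the same libraries. The cause was not tested. The count of members called in K36M against rtTA, 1 in the reported fit and fixed there by the choice of Calr, is no result. It was 0 with no filter, with only the 2 groups compared and with quantile normalization, and from 0 to 6 with a library left out. In K36M against K9M the 1 called member became 0 under the same 3 settings, with a range from 0 to 5. In K9M against rtTA the count was 0 in all settings.

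Over all genes, the 194 calls in K36M against rtTA became 76 with no filter, 25 with only the 2 groups compared and 301 with the replicate block, and ranged from 10 to 402 with a library left out. The 326 calls in K36M against K9M became 118 with no filter and ranged from 15 to 509 with a library left out. They became 595 with the replicate block, though replicate numbers did not pair the libraries in that comparison. The 15 calls in K9M against rtTA became 4 with no filter and 8 with quantile normalization, and ranged from 6 to 36. The block changed no member call. Members' medians ranged from 0.40 to 0.55, from 0.30 to 0.49 and from 0.07 to 0.18 in these comparisons with a library left out. Depth does not limit the members, whose lowest value rests on about 500 reads.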

Other observations

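Outside the 10 members, 32 genes held an ERSE in their RefSeq promoter window, 19 of them were in the table by symbol and 9 were tested. Their median log2 fold changes were 0.14 in K36M against rtTA, -0.11 in K9M against rtTA and 0.16 in K36M against K9M. Positive values were found for 6 of 9, 4 of 9 and 9 of 9 in these comparisons, against 52.3%, 51.3% and 51.1% of all tested genes. The match by symbol missed Ero1b, which also held an ERSE and is in the table under its older symbol, Ero1lb. It was tested and was negative in each comparison (-0.36, -0.14 and -0.22 in the same order), so the 9 of 9 does not cover every tested ERSE gene. Among the 9, the ER genes Dnajc3 (0.58, limma adjusted p = 0.0547), Syvn1, a ligase of ER-associated degradation (0.43, 0.275), and Creld2 (0.33, 0.173) did not pass in K36M against K9M. Dnajc3 averaged 24.5 ± 2.54 RPKM in K36M, 16.3 ± 2.21 RPKM in K9M and 21.8 ± 2.41 RPKM in rtTA (SD, n = 3 each).

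A processed copy of Calr on chromosome 2, Calr-ps (92.5% identity over 495 bases), stayed at or under 0.164 RPKM in all libraries. 1810014B01Rik, which overlaps Hsp90b1 and is identical to it over 273 bases, stood at 3.35 to 4.65 RPKM in K36M, 5.89 to 7.26 RPKM in K9M and 4.24 to 5.33 RPKM in rtTA.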
